A study of Mus musculus with 67 samples.

Results

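Sorted microglia from WT male mice were compared 6 h and 24 h after a single injection of LPS. The comparison comprised 7 of the 67 libraries of the series, chosen by their labels alone: 3 libraries at 6 h (library numbers 68 to 70) and 4 at 24 h (library numbers 3307, 3309, 3310 and 3402). The series measured RNA in mouse microglia with and without Orai1, the pore subunit of a calcium channel that opens when internal calcium stores are emptied. It did so in neonatal cultures (34 libraries) and in cells sorted from adult brain (33 libraries). WT mice were Orai1fl/fl and KO mice Orai1fl/fl Cx3CR1-cre/ERT2, so that the controls carried the floxed alleles without the Cre, and both genotypes received tamoxifen. The sorted animals were 10 to 12 weeks old, 30 to 35 days past the last tamoxifen dose, and were injected with LPS from Escherichia coli at 1 mg/kg or with PBS (vehicle). The WT male vehicle group (3 libraries), the KO males at 6 h (3) and 24 h (4), WT females at 24 h (4) and with vehicle (3), and WT cultures given 10 ng/ml LPS or DMSO for 6 h (6 each) are used below for comparison. There were no vehicle libraries at 6 h among the samples used here. The vehicle libraries carry numbers in the same range as the 24 h libraries.

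Microglia are the resident macrophages of the brain. LPS, a component of the outer membrane of Gram-negative bacteria, is sensed through the receptor TLR4 and its partners and switches on NF-kB and interferon signalling. In macrophages an early wave of cytokine and chemokine transcripts rises within hours and is shut down again by feedback, while later waves depend on newly made proteins and on interferon, and transcripts of the resting state are lost. After a systemic injection, microglia may also respond to mediators made outside the brain.

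The deposited table pairs no row with a gene. Rows are therefore given by their number from the top, no gene was named from its place, and neither the targeted gene nor markers of microglia or of other brain and blood cells could be looked up. Total counts of the 7 libraries ran from 5882244 to 7596706. The 50 most abundant rows took 20.8% to 22.1% of the counts at 6 h, 26.5% to 32.6% at 24 h and 23.6% to 26.6% with vehicle. All 6 h libraries of the series, WT and KO, had numbers from 68 to 73, and all other sorted libraries numbers from 3299 to 3402. A library run here means such a range of numbers, as the labels used name no run or batch. Time after LPS and library run therefore cannot be told apart in any 6 h value below. In these bulk libraries, fewer cells of a type and less RNA per cell cannot be told apart either.

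One of the WT 6 h libraries stood apart in how far it had moved from vehicle. This was seen on rows chosen in other animals, the 1252 rows that rose and the 995 that fell in WT females 24 h after LPS (8.16% and 6.48% of the 15344 rows tested, edgeR quasi-likelihood test, adjusted p under 0.05). On the rows that rose in females, the median log2 CPM difference (CPM, counts scaled to library totals) from male vehicle was 0.75, 0.84 and 0.32 in WT 6 h replicates 1, 2 and 3, and 0.85, 0.55, 0.82 and 0.81 in the 4 WT 24 h libraries. Replicate 3 (library 70) thus lay below every other WT LPS library and above the WT vehicle libraries, which lay at -0.08, 0.15 and -0.08. On the rows that fell in females, the medians were -0.75, -0.79 and -0.20 at 6 h and -0.80, -0.50, -0.77 and -0.74 at 24 h. Among the KO males, 6 h replicate 1 (library 71) was the low one, with medians of 0.14 and -0.08 against 0.63 and -0.54, and 0.57 and -0.57, in the other 6 h mice. Its value on the rows that rose lay within the range of the KO vehicle libraries, -0.09 to 0.15. WT 24 h replicate 2 (library 3309) took a place between the other 24 h libraries and the weak 6 h library. The depth of the weak libraries was not low: WT 6 h replicate 3 had the highest total of the 7. KO 6 h replicate 1 had 6626678 counts, against a median of 6536405 over all sorted libraries. The other KO 6 h libraries had more, at 6954915 and 7105142.

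**Figure D1:**
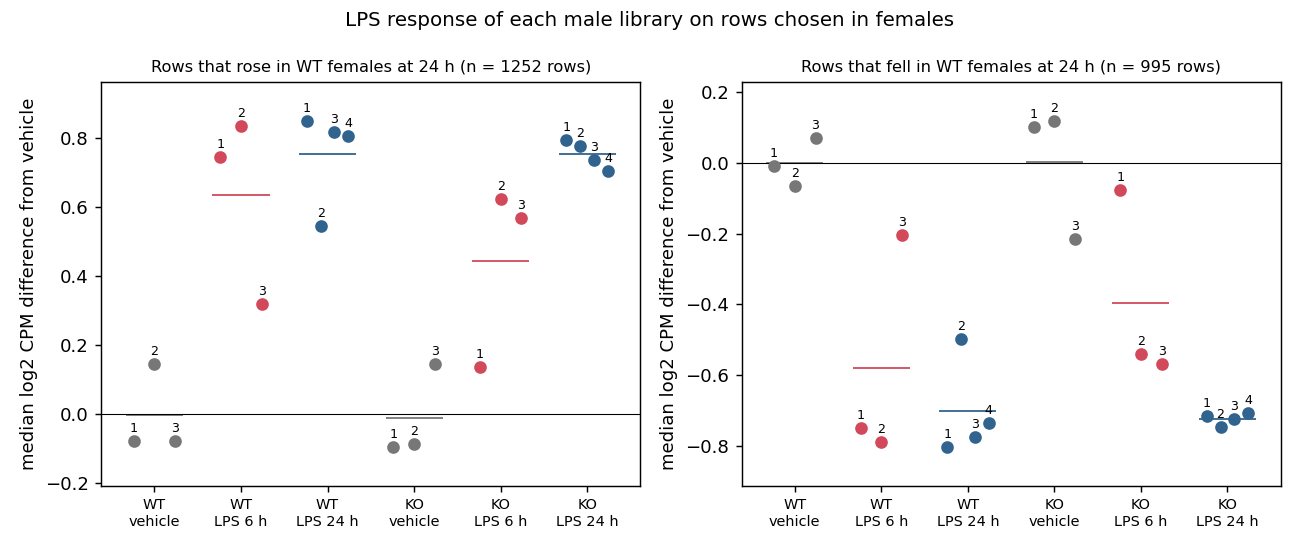
Median log2 CPM difference from the vehicle mean of the same genotype, for each sorted male library (points, numbered by replicate; lines are group means), over the 1252 rows that rose (left) and the 995 that fell (right) in WT females 24 h after LPS. WT 6 h replicate 3, at 0.32 and -0.20, and KO 6 h replicate 1, at 0.14 and -0.08, lie nearer to vehicle than the other LPS libraries.

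The same library stood apart on rows chosen without it. In a fit that left it out, 1551 rows rose and 1451 fell at 6 h against vehicle. Over the rows that rose, its own median difference from vehicle was 0.38 where the other 6 h mice had 1.14, and over those that fell -0.22 where they had -1.26. The direction was shared by 89% and 79.3% of these rows. The same vehicle libraries served to call the rows and to measure the left-out library, which favours a shared direction. The medians of the other 6 h mice come from the libraries that chose the rows, which favours large values. These shares and medians are therefore descriptions and carry no test. WT 6 h replicates 1 and 2, treated alike, had medians of 1.43 and 1.63 on the rows called without them. WT 24 h replicate 2 had 0.59 where the other 24 h mice had 1.03. The main counts at 6 h are therefore also given without WT 6 h replicate 3 and KO 6 h replicate 1 (the weak libraries), an alternative chosen after these values were seen.

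Between 6 h and 24 h after LPS, 350 rows were higher and 427 lower at 6 h in WT males, that is 2.28% and 2.78% (together 5.06%) of the 15344 rows tested (edgeR quasi-likelihood test, Benjamini-Hochberg adjusted p under 0.05). The rows higher at 6 h had a median log2 change of 0.85 and those lower at 6 h one of -1.07. A change over 2-fold was seen in 126 of the higher and 238 of the lower rows. All 3 libraries at 6 h lay outside the range of the 4 at 24 h in 283 of the 350 higher rows and in 393 of the 427 lower rows. Over all rows tested the libraries were so separated in 7.61% with 6 h higher and 7.9% with 6 h lower. The called rows were more abundant than most, with a median log2 CPM of 5.68 (higher) and 5.74 (lower) against 3.79 over all rows tested. Without the weak libraries 884 rows were higher and 1062 lower at 6 h (5.58% and 6.71% of 15837), among them 333 of the 350 and 357 of the 427. Leaving out WT 6 h replicate 3 alone gave 722 and 926, and leaving out replicate 1 or 2 instead gave 84 and 66 higher and 81 and 108 lower rows. In a fit of the 7 libraries alone, without the other groups behind the estimate of spread, 11 rows were higher and 42 lower.

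**Figure D2:**
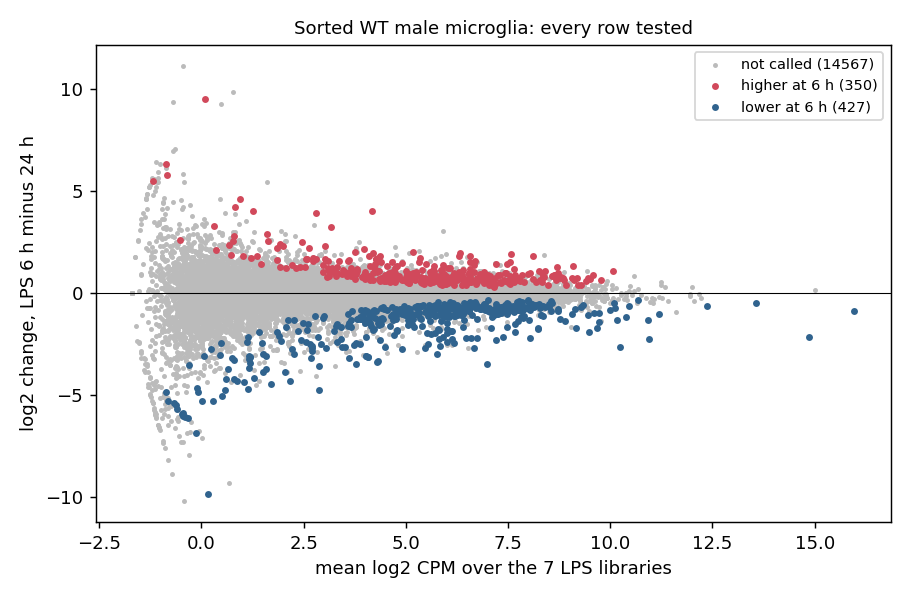
Log2 change (6 h minus 24 h, edgeR) against the mean log2 CPM over the 7 LPS libraries, 1 point per row tested. The 350 rows higher (red) and 427 lower (blue) at 6 h lie mostly at medium to high levels, and more of the lower rows (238) than of the higher rows (126) changed over 2-fold.

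A large part of each library's RNA was involved on the 24 h side. The 427 rows lower at 6 h took 11.7%, 12.6% and 12% of the counts in the 6 h libraries, and 22.1%, 22.2%, 21.1% and 27.7% in the 24 h libraries. The vehicle libraries lay between, at 16.8%, 15.9% and 13.2%. Since these rows were chosen by the same contrast, the values describe the size of the difference and do not test it. Most of that share sat in few rows: the 10 most abundant of them held 8.34%, 9.33% and 8.1% of the counts at 6 h against 15.6%, 16.8%, 14.6% and 21.4% at 24 h. WT 6 h replicate 3 was not apart here, in contrast to its weak response above. The 350 rows higher at 6 h took 6.05%, 6.27% and 4.17% of the counts at 6 h and 2.41% to 2.98% at 24 h.

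Lists called in other mice, though by the same contrast of library runs, differed in the same direction. The rows called lower at 6 h in KO males (545, or 3.55% of those tested) took 13.5%, 14.4% and 13.3% of the counts in the WT 6 h libraries and 23.6%, 23.7%, 22.6% and 29.2% in the WT 24 h libraries. The rows called higher at 6 h in KO males (450, or 2.93%) took 8.09%, 8.19% and 6.37% at 6 h and 4.44%, 4.7%, 4.72% and 3.83% at 24 h. The 6 h and 24 h libraries did not overlap on either list. The WT vehicle libraries had 17.7%, 16.9% and 14.0% on the list lower at 6 h. On the list higher at 6 h they had 5.97%, 5.94% and 6.26%, close to WT 6 h replicate 3. The share of the 50 most abundant rows was also lower at 6 h than at 24 h. It moved as the list lower at 6 h did and opposite to the list higher at 6 h. Its part in these results was not tested.

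The rows that differed between the times were set against vehicle. Of the 350 rows higher at 6 h, 234 (66.9%) had a vehicle level nearer to 24 h, against 53.9% of all rows tested, and 116 had one nearer to 6 h. Against vehicle itself, 161 of the 350 rose and 3 fell at 6 h, and 12 rose and 72 fell at 24 h. In all rows tested, 1032 rose (6.73%) and 572 fell (3.73%) at 6 h, together 10.5%, and 945 rose (6.16%) and 629 fell (4.1%) at 24 h, together 10.3%. A fit of the 6 h and vehicle libraries alone called 0 rows in either direction. These comparisons share the 6 h, 24 h or vehicle libraries with one another and are given side by side only. The 234 rows had median differences from vehicle of 1.00, 1.05 and 0.43 in the 6 h libraries, and between -0.09 and 0.04 in the 24 h libraries. That they lay nearer to vehicle at 24 h was fixed by the split, and replicate 3 departed least of the 6 h libraries. The other 116 rows lay near vehicle at 6 h, at 0.16, 0.17 and -0.02, and below it at 24 h, at -0.83, -0.54, -0.75 and -0.89.

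The rows lower at 6 h split the other way. Of the 427, 178 (41.7%) had a vehicle level nearer to 24 h and 249 one nearer to 6 h. Against vehicle, 13 rose and 101 fell at 6 h, while 179 rose and 0 fell at 24 h. The 249 rows lay near vehicle at 6 h, at -0.13, -0.08 and 0.08, and above it at 24 h, at 1.09, 0.64, 0.94 and 0.99. Their place near vehicle at 6 h was again fixed by the split, and replicate 2 departed least of the 24 h libraries. The 178 rows lay below vehicle at 6 h, at -1.35, -1.39 and -0.55, and between 0.01 and 0.36 at 24 h.

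**Figure D3:**
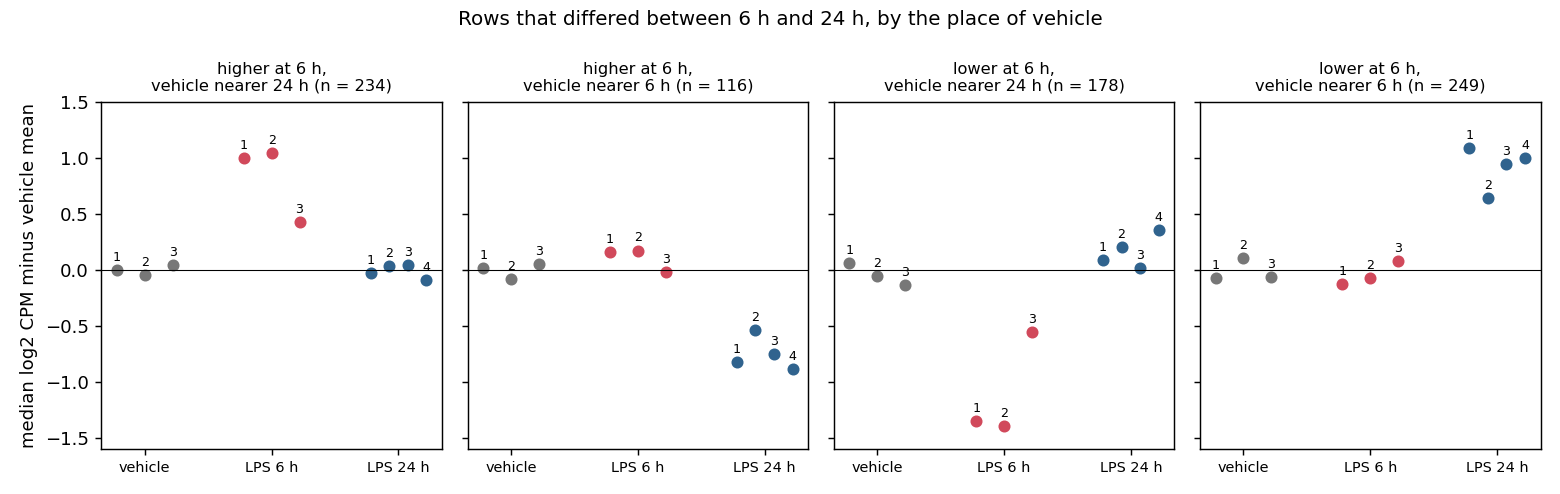
Median log2 CPM minus the vehicle mean in each WT male library (points, numbered by replicate) for the rows that differed between 6 h and 24 h, split by direction and by whether vehicle lay nearer to 24 h or to 6 h. In the classes with vehicle nearer to 24 h the 6 h libraries depart from 0 and replicate 3 departs least; in the other classes the 24 h libraries depart and replicate 2 departs least.

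This balance changed with the weak libraries. Without WT 6 h replicate 3 and KO 6 h replicate 1, 753 of 884 rows higher at 6 h (85.2%) and 831 of 1062 rows lower at 6 h (78.3%) had vehicle nearer to 24 h, against 62.1% of all rows tested. Among the rows lower at 6 h, vehicle thus lay nearer to 6 h in most rows of the full fit and nearer to 24 h in most rows of this fit. Against vehicle, 711 of the 1062 then fell at 6 h, while 189 rose and 169 fell at 24 h. The median log2 change over the 1062 rows was -1.01 at 6 h and 0.03 at 24 h. Of the 884 rows higher at 6 h, 613 rose at 6 h, and the median over the 884 was 0.95. The position of vehicle without WT 6 h replicate 3 alone was not computed. In all rows tested, 1675 rose (10.6%) and 1535 fell (9.69%) at 6 h in that fit.

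Single rows differed in how far replicate 3 followed the other mice, as the plot of the named rows in every sorted male library shows. By the rule for naming rows, rows 41078 and 16066 were the largest increases and rows 5524 and 32655 the largest decreases at 6 h relative to 24 h. Row 5524 was a row present at 24 h. It had 69.6, 3.66, 46.0 and 28.8 CPM in the 24 h libraries, 0.926, 2.66 and 0.490 CPM at 6 h, and 3 counts in total in the vehicle libraries. The log2 change was -4.76 ± 1.20 (SE, edgeR adjusted p = 0.0207), with 24 h replicate 2 the lowest of its group but above all 6 h libraries. In WT females it was at 0 in all 3 vehicle libraries and between 3.69 and 107 CPM at 24 h. Its call was lost in 6 of 15 alternatives.

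Row 32655 was low at 6 h in every library. It had 0.309, 0.140 and 0.245 CPM at 6 h (mean 0.231 ± 0.0853, SD, n = 3) and 3.41, 7.65, 5.36 and 9.45 CPM at 24 h (6.47 ± 2.64, n = 4), a log2 change of -4.70 ± 0.95 (SE, edgeR adjusted p = 0.00465). The vehicle libraries, at 6.70, 1.78 and 2.43 CPM, were all above the 6 h libraries as well. Replicate 3 was as low as the other 6 h mice, and so were the KO 6 h libraries, at 0.143, 0.535 and 0.523 CPM. Among WT females at 24 h this row had 3.78 and 3.96 CPM in the libraries numbered 3312 and 3315, and 42.2 and 26.3 CPM in those numbered 3377 and 3392. It therefore also differed between library numbers within the WT females at 24 h. The KO females at 24 h showed no such split, with 8.04 CPM in library 3300 and 7.95 and 6.52 CPM in libraries 3394 and 3396. Among KO males at 24 h, library 3399 had 10.3 CPM and the others 5.00, 4.71 and 7.71 CPM.

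Row 12290, named for its fall at 6 h against vehicle, had the same form. It had 0, 1.68 and 0.736 CPM at 6 h, 29.5, 13.1 and 6.56 CPM with vehicle, and 8.29, 28.6, 10.9 and 20.1 CPM at 24 h. The log2 change was -4.29 ± 0.98 against vehicle (SE, edgeR adjusted p = 0.00596) and -4.34 ± 0.96 against 24 h (adjusted p = 0.00901). In KO males it was at 0, 0.803 and 1.05 CPM at 6 h and no lower than 12.5 CPM at 24 h. WT females at 24 h had 14.6 and 6.60 CPM in the lower library numbers and 98.3 and 61.3 CPM in the higher ones. The KO females at 24 h went the other way, with 28.1 CPM in the lower number and 16.5 and 19.1 CPM in the higher ones. Among KO males at 24 h, library 3399 had 28.2 CPM and the others 12.5, 24.0 and 25.8 CPM.

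Rows of this form were few. In 38 of the 15344 rows tested (0.248%) all 6 of the 6 h libraries, WT and KO, lay below all 27 other sorted libraries, and in 21 rows (0.137%) above them. Of the 38, 32 belonged to the 427 rows lower at 6 h in WT, which is 7.49% of these, and 20 of the 21 to the 350 higher rows (5.71%). In the 38 rows the median difference from WT vehicle was -2.53 in the 2 weak 6 h libraries and -2.48 in the other 4. The weak libraries were thus no less low in these rows than the others. In the 21 rows it was 0.53 in the weak libraries and 0.85 in the others. The WT 24 h libraries lay near vehicle in both, at -0.08 and -0.13. Since the rows were chosen by their levels in these libraries, the values carry no test.

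Row 16066 was higher at 6 h than at 24 h by 3.25 ± 0.69 on the log2 scale (SE, edgeR adjusted p = 0.00659). It had 35.2, 51.7 and 12.4 CPM at 6 h and 3.41, 4.49, 2.90 and 3.09 CPM at 24 h. Against vehicle (12.8, 10.0 and 178 CPM) it fell at 24 h (log2 change -4.26, adjusted p = 0.0003) and gave no call at 6 h (-1.02, adjusted p = 0.376). Vehicle replicate 3 was far above the other vehicle libraries, which lay below all 3 libraries at 6 h save that replicate 1, at 12.8 CPM, was above 6 h replicate 3. In KO males the change from 24 h to 6 h was 3.46 (adjusted p = 0.00353). In WT females the change from vehicle at 24 h was smaller, at -1.92, and gave no call (adjusted p = 0.0591).

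Row 41078 had 6.64, 53.4 and 47.8 CPM at 6 h and 1.63, 1.83, 2.18 and 3.86 CPM at 24 h, a log2 change of 3.93 ± 1.16 (SE, edgeR adjusted p = 0.0472). Outside WT males, 1 KO male library at 24 h had 49.1 CPM, and 1 KO male library at 6 h, 1 KO female vehicle library and 1 KO female library at 24 h had 26.4, 29.5 and 27.6 CPM. In KO males the log2 change was -0.43 (adjusted p = 0.87). The call in WT was lost in 11 of 15 alternatives.

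**Figure D4:**
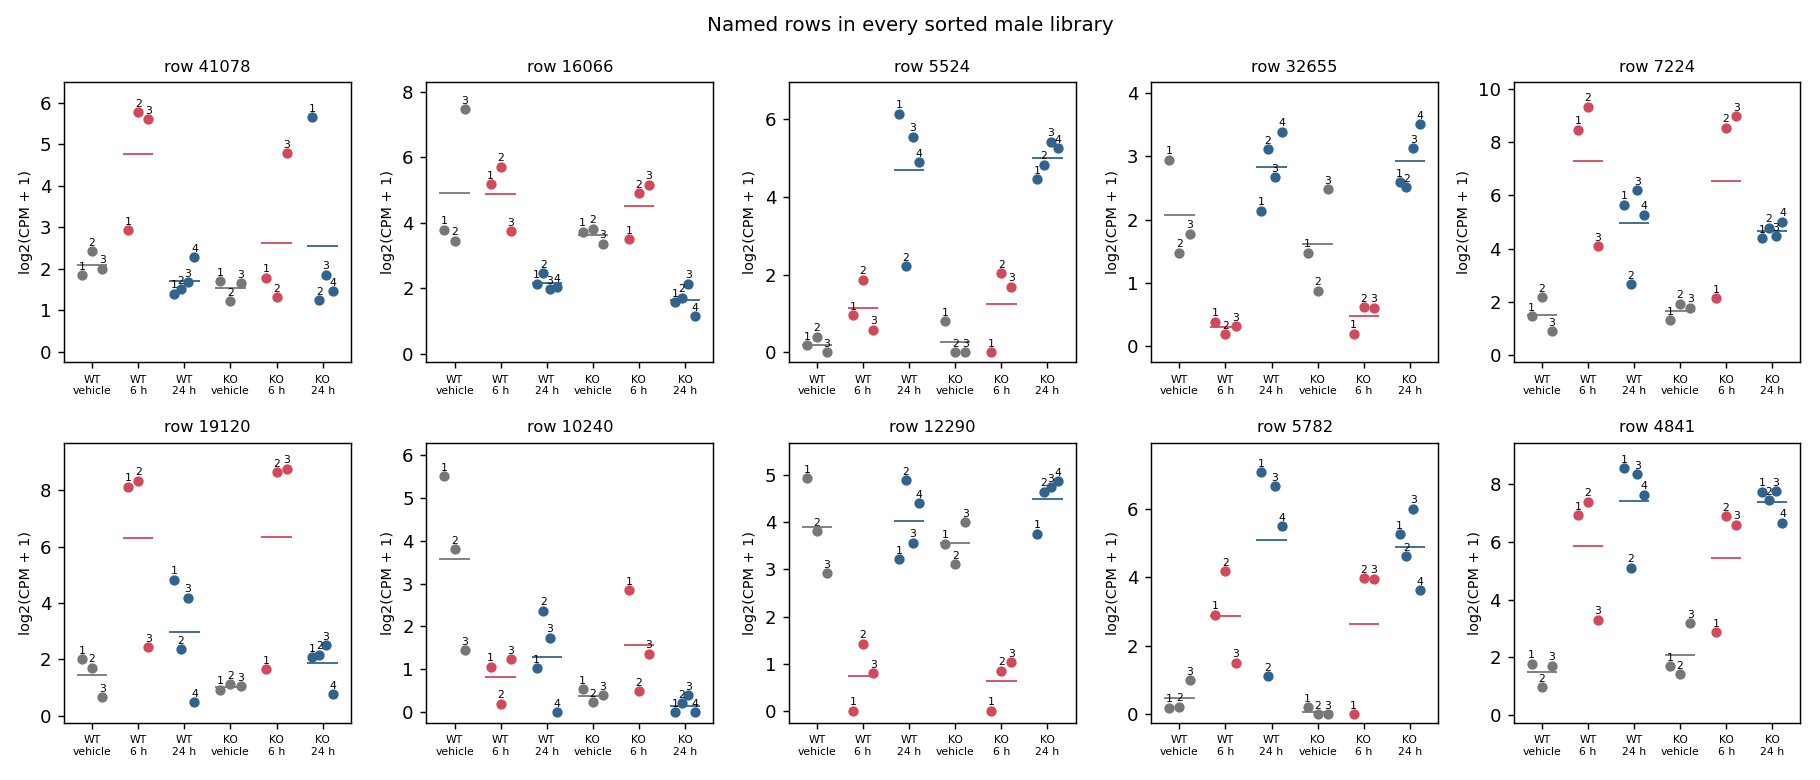
Level of 10 named rows as log2(CPM + 1) in every sorted male library (points, numbered by replicate; lines are group means), by genotype and treatment. Rows 32655 and 12290 are low in all 6 h libraries of both genotypes, while rows 7224, 19120 and 4841 are low in WT 6 h replicate 3 and KO 6 h replicate 1 only among the 6 h libraries.

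The rows with the largest rise at 6 h against vehicle showed the weak library most plainly. Row 7224 had 355, 641 and 16.2 CPM at 6 h, 1.78, 3.55 and 0.856 CPM with vehicle, and 49.5, 5.32, 72.6 and 37.8 CPM at 24 h. Its log2 change was 7.37 ± 1.40 at 6 h against vehicle (SE, edgeR adjusted p = 0.00146) and 4.34 at 24 h (adjusted p = 0.0248). Between 6 h and 24 h it was 3.03 without passing the threshold (adjusted p = 0.0668), and replicate 3 lay among the 24 h libraries.

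Row 19120 had 279, 321 and 4.41 CPM at 6 h, 3.01, 2.26 and 0.571 CPM with vehicle, and 27.4, 4.16, 17.3 and 0.386 CPM at 24 h. It rose at 6 h by 6.68 ± 1.49 on the log2 scale (SE, edgeR adjusted p = 0.00494) and was higher at 6 h than at 24 h by 4.01 (adjusted p = 0.0348), while 24 h against vehicle gave no call (2.67, adjusted p = 0.22). In KO males the 6 h libraries had 2.15, 397 and 432 CPM, and the log2 change from 24 h was 6.50 (adjusted p = 0.00247). In both genotypes the low library was the one that was weak over the female lists.

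Row 10240, the other row named for its fall at 6 h, had 44.4, 12.9 and 1.71 CPM with vehicle and 1.08, 0.140 and 1.35 CPM at 6 h (log2 change -4.49, edgeR adjusted p = 0.0292), a call lost in 6 of 14 alternatives. It did not differ detectably between the times (log2 change -1.12, adjusted p = 0.642). No such fall was seen in KO males, with 0.445, 0.166 and 0.306 CPM with vehicle and 6.15, 0.402 and 1.57 CPM at 6 h.

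Of the rows named for their rise at 24 h against vehicle, 1 was also called at 6 h. Row 4841 had 367, 33.3, 322 and 195 CPM at 24 h, 119, 166 and 8.83 CPM at 6 h and 2.46, 0.969 and 2.28 CPM with vehicle. Its log2 change against vehicle was 6.88 ± 1.22 at 24 h (SE, edgeR adjusted p = 0.000598) and 5.65 at 6 h (adjusted p = 0.00335). The difference between the times, -1.23, gave no call (adjusted p = 0.451). Row 5782 had 134, 1.16, 101 and 44.2 CPM at 24 h against 6.48, 17.1 and 1.84 CPM at 6 h and at most 0.999 CPM with vehicle. Its rise at 24 h was called (log2 change 7.27, adjusted p = 0.00514), and that at 6 h was not (4.21, adjusted p = 0.101).

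Row 3646 had 12.4, 11.6 and 13.7 CPM with vehicle, 0.154, 0.140 and 7.85 CPM at 6 h and at most 0.889 CPM at 24 h. It fell at 24 h by 4.65 on the log2 scale (edgeR adjusted p = 0.00544), and at 6 h only replicates 1 and 2 were as low. Row 7524 had 3.96, 36.2 and 6.14 CPM with vehicle and 1.78, 0.665, 0 and 0.193 CPM at 24 h (log2 change -4.48, adjusted p = 0.0128), with 0.309, 2.94 and 5.64 CPM at 6 h.

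Rows switched fully on at 1 time only were rare, and by the same limits no row was switched off at 1 time only. At least 10 counts in each 6 h library with at most 3 in total in the vehicle and 24 h libraries were found in 1 row, 22721, which is named here after its values were seen. It had 52, 187 and 168 counts at 6 h and 0 in the 7 vehicle and 24 h libraries of WT males, and also 0 in the 3 KO 6 h libraries. It did not pass the test between the times (edgeR adjusted p = 0.0638). No row met the same conditions for 24 h against vehicle and 6 h. Nor did any row have at least 10 counts in each 24 h library with at most 3 in total at 6 h. The reverse held in rows 22721 and 36882, and both had 0 counts in WT vehicle replicates 1 and 2.

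The 24 h response of WT females, measured in other mice, was present in WT males at both times. Of the 1252 rows that rose in females, 705 rose in males at 24 h and 536 at 6 h, with median log2 changes of 0.76 and 0.65, where 6.16% and 6.73% of all rows rose. That is 56.3% and 42.8% of the list. Of the 995 that fell, 459 (46.1%) fell in males at 24 h and 237 (23.8%) at 6 h, with medians of -0.74 and -0.57, where 4.1% and 3.73% of all rows fell. In the fit without the weak libraries the female lists were called anew, with 1395 rising and 1383 falling rows. Of the 1395 rising rows, 846 (60.6%) rose in males at 24 h and 771 (55.3%) at 6 h, with medians of 0.75 and 0.85. Of 1383 falling rows, 749 (54.2%) then fell at 24 h and 742 (53.7%) at 6 h, with medians of -0.65 and -0.84. Between the times, 39 of the female rising rows were higher and 169 lower at 6 h (3.12% and 13.5%, against 2.28% and 2.78% of all rows), and 70 of the falling rows were higher and 0 lower. Both lists were chosen for their change at 24 h. Without the weak libraries the majorities turned on the lists called anew. There, 233 of 1395 rising rows were higher and 161 lower at 6 h, and 94 of 1383 falling rows were higher and 269 lower. Both the lists and the contrast changed in that fit, and their parts in the turn were not tested.

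Of the rows named for the females, row 4280 had 187, 17.8, 154 and 140 CPM in WT males at 24 h, 24.9, 26.6 and 6.38 CPM at 6 h and at most 3.14 CPM with vehicle. It rose at both times (log2 changes 5.93 and 3.23, edgeR adjusted p = 6.49e-05 and 0.0129) and was lower at 6 h than at 24 h by -2.70 (adjusted p = 0.0229). Row 6411 fell in males at 24 h, from 22.6, 23.9 and 23.5 CPM with vehicle to between 0.725 and 3.86 CPM (log2 change -3.37, adjusted p = 0.0012). At 6 h it had 5.71, 6.99 and 8.70 CPM, between vehicle and 24 h in every library, without a call against either (adjusted p = 0.0957 and 0.129). Row 653 followed it, at 5.87, 6.29 and 7.85 CPM at 6 h between 11.8 to 25.1 CPM with vehicle and 1.04 to 4.25 CPM at 24 h.

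In culture, where LPS acted on the cells directly for 6 h, 21.8% of 15979 rows rose and 26.2% fell (together 48%). RNA amounts were 100 ng for the cultures and 0.97 ng for the sorted cells. Total counts were 8589766 to 15253502 in these cultures and 4989974 to 7596706 over the sorted libraries. The part of these differences in the shares called was not tested. In all, 13382 rows were tested in both tables. The tables were matched by row position. The Spearman correlation of mean levels was 0.854 with the rows as given and 0.326 to 0.346 when moved by 1 to 3 rows. Of the 3168 shared rows that rose in culture, 519 (16.4%) rose in sorted WT males at 6 h and 464 (14.6%) at 24 h, against 7.6% and 6.89% of the shared rows. Of the 3900 that fell in culture, 240 (6.15%) fell at 6 h and 244 (6.26%) at 24 h, against 3.59% and 4.17%. Without the weak libraries, 794 of 3192 rows that rose in culture (24.9%) rose at 6 h and 561 (17.6%) at 24 h, and 674 of 3934 that fell (17.1%) fell at 6 h and 384 (9.76%) at 24 h. In that fit 10.6% and 7.31% of all rows tested rose at 6 h and 24 h, and 9.69% and 6.06% fell. In the fit of all libraries, the rows that rose in culture had median log2 changes of 0.21 at 6 h and 0.16 at 24 h in the animals. The 2 comparisons share the vehicle libraries, and their difference was tested row by row only. Between the times, 107 of them were higher and 114 lower at 6 h, and without the weak libraries 340 and 219. Of the rows that fell in culture, 85 were higher and 121 lower at 6 h, and without the weak libraries 180 and 452.

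The rows named for the culture were chosen for their large change there, which favours a smaller change in the animals. Their vehicle levels differed as well. Row 6096 had mean vehicle levels of 4.63 (female) and 0.472 CPM (male) in WT cultures and 7.68 CPM in sorted WT males. Row 6097 had 2.42 and 0.611 CPM in culture and 64.4 CPM in sorted WT males, so that a rise of the same size had less room there. Row 6096 rose in culture by 11.99 on the log2 scale (edgeR adjusted p = 2.07e-12). In sorted WT males the log2 change from vehicle was 1.95 at 6 h (adjusted p = 0.00633) and 3.25 at 24 h (adjusted p = 3.53e-05), with 28.9, 37.2 and 23.2 CPM at 6 h and 115, 56.1, 80.3 and 40.7 CPM at 24 h. The neighbouring row 6097, at 11.19 in culture, had a log2 change of 0.04 at 6 h (adjusted p = 0.928) and 0.71 at 24 h (adjusted p = 0.00442), and was lower at 6 h than at 24 h by -0.67 (adjusted p = 0.0141). Rows 17577 and 13438 fell in culture, with log2 changes of -5.97 and -5.13 (edgeR adjusted p = 2.05e-13 and 8.73e-15), and gave no call at either time in the animals. Row 13438 was at most 1.45 CPM in the WT male libraries, so that a fall could hardly be seen there.

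The difference between 6 h and 24 h had the same direction in KO males for nearly all called rows. Of the 350 rows higher at 6 h in WT, 333 had a positive log2 change in KO and 136 were called higher there, and of the 427 lower rows 419 had a negative one and 242 were called lower. Of all rows tested in KO, 52.1% had a positive and 47.7% a negative change, and 2.93% were called higher and 3.55% lower. No row was called in opposite directions. The shared rows made up 38.9% of the WT and 30.2% of the KO rows higher at 6 h, and 56.7% and 44.4% of the lower rows. Without the weak libraries the shared rows were 355 (40.2% and 52.7%) and 537 (50.6% and 69.6%), with 2 called in opposite directions, where 4.25% and 4.87% of all rows were called higher and lower in KO. Over all 15344 rows, the Spearman correlation between the log2 changes in WT and KO was 0.488 and Pearson's 0.414. The 2 contrasts use different mice, but both set library numbers 68 to 73 against 3303 to 3402, so a difference between runs would enter both.

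**Figure D5:**
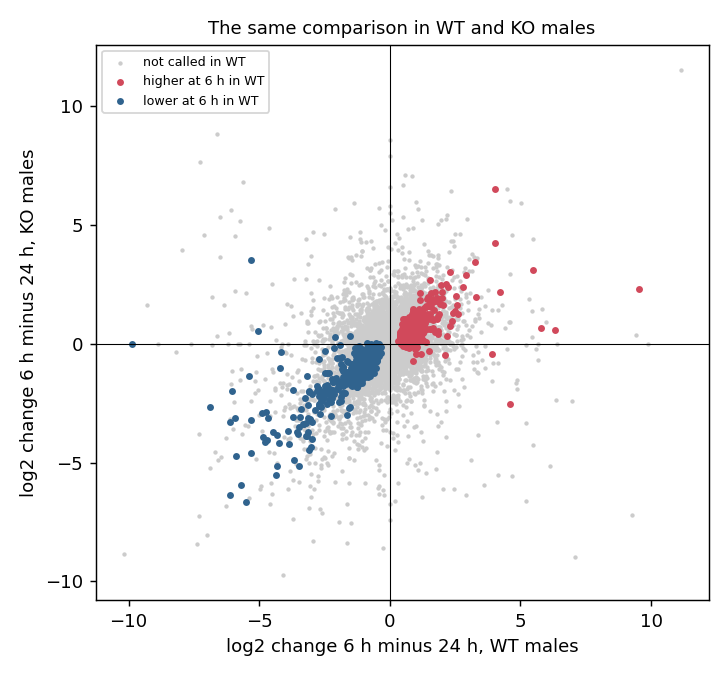
Log2 change from 24 h to 6 h (6 h minus 24 h, edgeR) in WT males (horizontal) and KO males (vertical), 1 point per row tested, with the 350 rows higher (red) and the 427 lower (blue) at 6 h in WT. Of these, 333 and 419 have the same sign in KO.

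A difference between the genotypes in this contrast was not detectable. The test of the KO minus the WT change called 0 rows (edgeR quasi-likelihood test, 769 rows at an unadjusted p under 0.05, lowest adjusted p = 0.0752), DESeq2 called 4 higher and 7 lower, and voom 0. Without the weak libraries edgeR also called 0 (983 at an unadjusted p under 0.05). The rows named for KO males can be set beside WT. Row 3984 was lower at 6 h in both (log2 change -5.53 in KO, adjusted p = 0.0103, and -4.36 in WT, adjusted p = 0.0421), with 0, 0.699 and 0.123 CPM at 6 h and 5.18, 5.32, 3.34 and 10.4 CPM at 24 h in WT. Row 6179 was higher at 6 h in KO by 4.19 (adjusted p = 0.00146). In WT it had 12.2, 7.83 and 0.490 CPM at 6 h and 0.965 to 4.66 CPM at 24 h without a call (log2 change 1.31, adjusted p = 0.288). Rows 15948 and 11662, at 3.81 and -5.85 in KO (adjusted p = 0.00515 and 0.0259), had WT changes of 0.47 and -1.57 without a call (adjusted p = 0.804 and 0.498). The KO calls of rows 3984, 11662, 15948 and 6179 were lost in 4, 6, 2 and 1 of 15 alternatives.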

How the data were processed

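The deposited values are whole-number read counts per row of the sorted and the cultured microglia, which the authors left without normalization and without row identifiers. The submitters' processing notes list Trim Galore 0.6.7, Salmon 1.10.1, STAR 2.7.10a and GRCm38, and the counting settings are not given in the sources used here. GEO's labels gave the groups, and 0 library columns were left unmapped. The metadata deposited with the sorted counts give each library its own mouse. They also describe cultured cells, and the labels were followed.

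Of 45707 rows, those with enough counts (filterByExpr, minimum count 10, minimum total 15) were tested: 15344 in the sorted table, with 99.8% of the counts, and 15979 in the culture table. After TMM scaling, all groups of a table entered a single edgeR 4.0.16 quasi-likelihood model (R 4.3.3, two-sided, Benjamini-Hochberg adjusted p under 0.05). CPM values use the TMM-scaled totals, and log2 CPM a prior count of 2. Each standard error was derived from the F statistic.

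On simulated counts for 6 h against 24 h, 42% of the 2-fold changes and 77% of the 4-fold changes were found (100 rows each), with 3 false calls among 14994 rows. The simulated rows varied independently, and changes were placed only in rows with an average log2 CPM of 1 or more. No weak library and no difference between runs was simulated, so these shares do not cover either. Within each group the libraries differed by more than counting noise, with a chi-square over its degrees of freedom of at least 12.6 at 6 h and 16.2 at 24 h.

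In each comparison up to 2 rows per direction were named, by the size of the log2 change. A named row was called, had a log2 CPM of 1 or more on average and over 3 counts in each group, and did not overlap between the groups (the culture within each sex). The gene lists and markers of the plan could not be tested without identifiers. Members, lists and tests were chosen with earlier results of these data known. Alternatives were other size factors, no filter, DESeq2 1.42.0, voom (limma 3.58.1), a term for library numbers from 3376 on, the compared groups alone, a replicate block and leaving out libraries.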

Additional observations from a re-analysis of the deposited data

Results flagged for a closer look

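On the 1252 rows that rose in WT females 24 h after LPS, the median log2 difference from vehicle of WT male 24 h replicate 2 was 0.55, set apart below the other 3 libraries of its group. The gap to the nearest of them was 0.856 of the group's range, against a critical value of 0.829 for 4 values. It was the 1 value set apart among 30 groups of 4 tested, and chance alone sets apart about 1 in 20. In 777 rows the level differed between 6 h and 24 h after LPS in WT males by the edgeR quasi-likelihood test. These are the 350 higher and 427 lower rows described above. Vehicle did not enter this contrast, and time and library run cannot be told apart in it.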

How the results depend on the processing

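Counts of called rows moved with the tool and with single libraries more than with the scaling, and the cause was not tested. DESeq2's size factors in edgeR gave 336 rows higher and 464 lower at 6 h than at 24 h in WT males, and a term for library numbers from 3376 on gave 384 and 494. Without a filter 231 rows were higher. DESeq2 gave 593 and 813, and voom with quality weights 1056 and 1079. For 6 h against vehicle DESeq2 gave 973 lower and voom 2081 higher and 1910 lower, for 24 h against vehicle voom gave 1167 lower, and for WT females 1508 lower. In KO males DESeq2 gave 942 lower and voom 910 and 1011. For the genotype difference an unfiltered fit called 1 lower row, and DESeq2 4 higher and 7 lower.

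Fits of the compared groups alone, with fewer samples behind the spread, called 11 and 42 rows between the times in WT, 0 and 0 at 6 h against vehicle, and 161 higher in KO. The replicate numbers do not pair the mice: deviations of same-numbered 6 h and 24 h libraries correlated at 0.06, -0.19 and -0.15. With a replicate block in these fits, 0 and 0 rows were called between the times, 0 and 0 at 6 h against vehicle, 116 and 33 at 24 h against vehicle, and 3 and 19 in KO.

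Leaving out single libraries gave 66 (without 6 h replicate 2) to 722 (without 6 h replicate 3) rows higher and 81 (without 6 h replicate 1) to 926 (without 6 h replicate 3) lower at 6 h than at 24 h. The ranges were 347 to 1551 and 66 to 1451 for 6 h against vehicle, 510 to 1081 and 352 to 734 for 24 h against vehicle, 183 to 542 and 216 to 604 in KO, 0 to 4 and 0 to 2 for the genotype difference, 803 to 1159 and 645 to 876 in females, and 3123 to 3657 and 3687 to 4383 in culture. Without both weak 6 h libraries, WT had 884 and 1062 rows between the times and 1675 and 1535 at 6 h against vehicle. No named row reversed its direction under any alternative run. Rows 16066 and 32655 lost their call in 2 of 15 alternatives each, rows 12290, 19120, 7224, 7524, 3646 and 5782 in 3, 3, 2, 3, 1 and 1 of 14, and row 4841 and the rows named for females and culture in 0. Intervals cover the spread between libraries; the reads carry no molecular identifiers.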
